A study of Mus musculus with 6 samples.

Results

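Long intergenic noncoding RNAs (lincRNAs) are transcripts annotated as noncoding that mostly lie between protein-coding genes. Many are spliced and polyadenylated much as messenger RNAs are. The 57 described here were all genes of the count table that GENCODE M21 annotates as lincRNA and that held at least 500 raw counts summed over the 6 libraries, out of 5535 lincRNA genes in the table, 2132 of which had at least 1 count, and out of 54532 genes of every kind. They were chosen by summed counts and by annotation, and the difference between diets was not used. RefSeq annotates 5 of them (1810058I24Rik, Tmem250-ps, Gm37494, Gm46430 and D930016D06Rik) as protein coding and 2 (Gm10076 and 4632415L05Rik) as pseudogenes. In GENCODE M21, 9 of the 57 have a single exon, and the gene bounds of 5 overlap a protein-coding gene. Libraries were made from the epididymal (visceral) fat of male C57BL/6J mice. The 3 ND libraries came from mice on a normal diet with 4.5% fat. The 3 HFD libraries came from mice on a high-fat diet with 60% fat. By the study's methods, either diet was fed for 16 weeks from the age of 4 weeks, and the HFD mice were 20 weeks old. No other allele, transgene or agent distinguished the groups. The sources used here do not say whether each library held 1 animal or a pool, so p-values measure the spread between libraries only.

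Some lincRNAs build nuclear bodies, as Neat1 does for paraspeckles, the granules that hold back certain RNAs and RNA-binding proteins. Others carry small nucleolar RNAs (snoRNAs) or microRNAs in their introns, bind microRNAs or proteins in the cytoplasm, or are transcribed away from the promoter of a protein-coding gene that starts beside them on the opposite strand. In adipose tissue, lincRNAs have been studied in adipocyte differentiation, thermogenesis and macrophage activation.

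Summed counts of the 57 lincRNAs ran from 541 to 93429. Just inside the minimum of 500 were Prr33 with 553 counts, Smkr-ps with 547 and 9330102E08Rik with 541. Just outside it were Gm7160 with 482, Gm38399 with 479 and Gm30173 with 464. All 57 passed the filter on low counts and were tested. A lincRNA that is scarce on 1 diet can reach the minimum through the other. Gm48832, Lppos, 4632404H12Rik, C920006O11Rik, AI480526 and Smkr-ps had under 250 counts on HFD, and 2 of these 6 passed the test as lower. Gm5627 and Prr33 had under 250 counts on ND, and Gm5627 passed as higher. The other 49 had at least 250 counts in each diet.

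Library totals lay between 16996896 and 18859320 counts, and the 57 lincRNAs took 0.21% to 0.308% of a library. Some marker genes of the tissue moved with diet, beside 9.85% of all genes tested that rose on HFD and 6.04% that fell. None passed the test among 12 lymphocyte, 8 endothelial, 8 mesothelial, 5 erythroid and 8 dividing-cell markers. Of 10 progenitor and fibroblast markers 1 rose, and of 5 tested skeletal muscle markers 1 fell. Of 15 macrophage markers, 10 rose, none fell and their summed level was 2080 to 2191 CPM (counts scaled to library size) on ND and 5122 to 12740 on HFD. Of 10 markers of lipid-associated macrophages, 8 rose, and the median log2 fold change of the 10 (HFD minus ND) was 4.93, from -0.33 to 8.11. Their summed level, in which the most abundant markers weigh most, was 9961 to 13267 CPM on ND and 11850 to 18846 on HFD, ranges that overlap. Of 15 adipocyte markers, 1 rose and 3 fell, with a summed level of 51265 to 66171 CPM on ND and 18494 to 46779 on HFD. In bulk tissue, fewer cells of a type cannot be told apart from less RNA per cell. Replicate 3 of ND differed from the other libraries in a list of 12 motile cilium and duct epithelium genes, whose summed level was 235 CPM there and 12.6 to 17.3 CPM in the other 5. The part of these shifts in each lincRNA result was not tested.

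The comparison of the diets called 15 of the 57 lincRNAs at an adjusted p below 0.05 (edgeR quasi-likelihood test, Benjamini-Hochberg adjustment over all 15751 genes tested). That was 26.3%, beside 15.9% of all genes tested and 17.7% of the 11724 tested genes that also held at least 500 counts. On HFD, 6 lincRNAs were higher (10.5%, beside 9.85% of all genes tested and 11.3% of those with at least 500 counts) and 9 were lower (15.8%, beside 6.04% and 6.46%). The libraries of the diets did not overlap in 31 lincRNAs, 11 with HFD above ND and 20 with HFD below ND, beside 40.9% of all genes tested and 44.1% of those with at least 500 counts that did not overlap. All 15 lincRNAs past the test were among these 31, and 16 of the 31 did not pass. 1700047G03Rik, Gm5627, Fam120aos and Gm48832 passed also with any 1 library left out. The other 11 did not pass without HFD replicate 1, ND replicate 1 or ND replicate 2, with any of which left out 2.93% to 3.63% of all genes passed. Of these 11, 9 did not pass without ND replicate 3, where 6.24% of all genes passed. In that fit 4 lincRNAs were higher and 3 lower. The log2 fold change (HFD minus ND) ran from -4.04 to 3.38. It was negative for 38 lincRNAs and positive for 19, with a median of -0.27, beside a median of 0.01 over all genes tested. Among protein-coding genes with at least 500 counts, 47.5% had a negative log2 fold change, and among lincRNAs with at least 500 it was 66.7%.

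**Figure D1:**
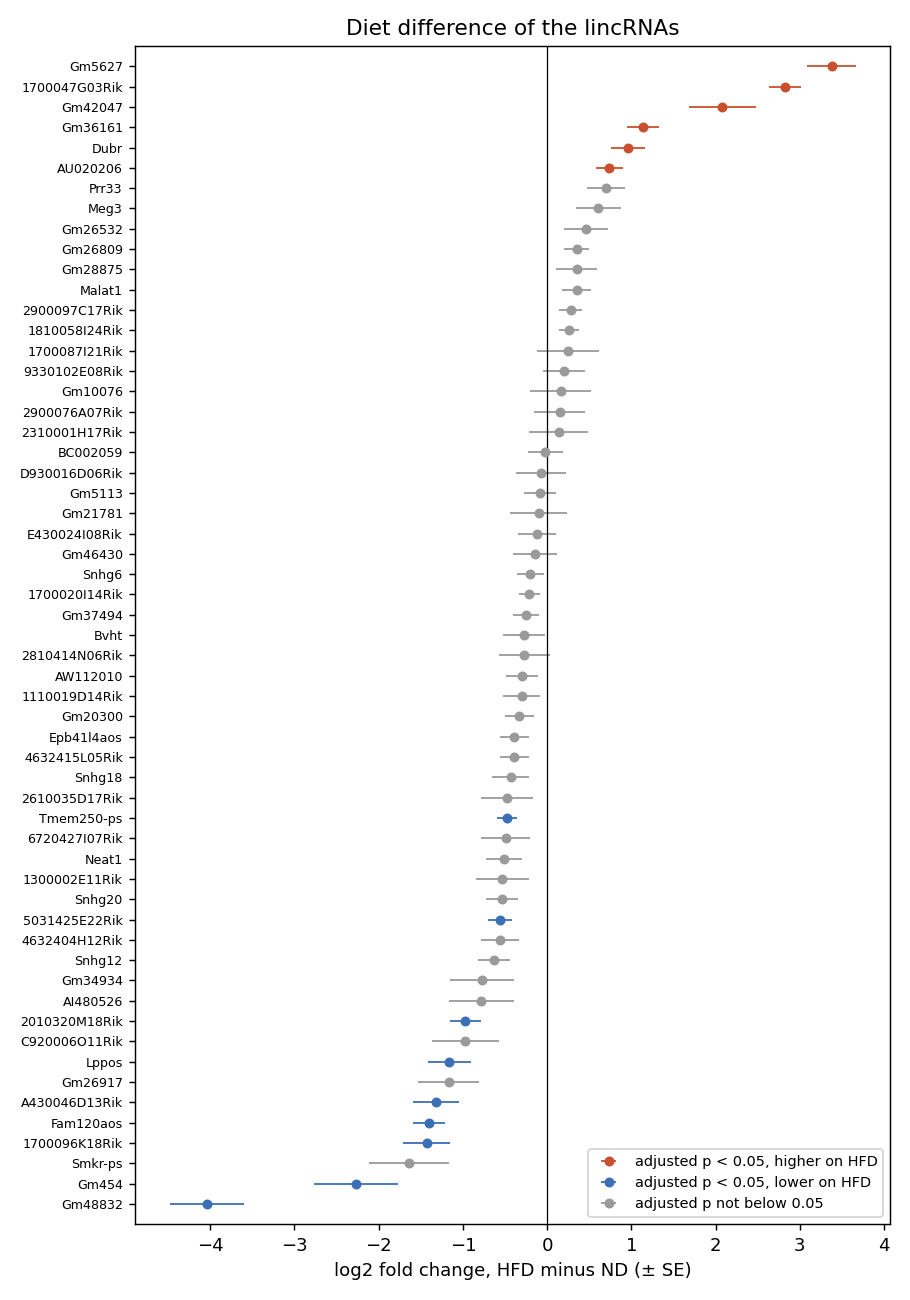
Log2 fold change of each of the 57 lincRNAs, HFD minus ND, with its standard error from the edgeR fit (3 libraries per diet). Red points are the 6 past the test and higher on HFD, blue points the 9 past the test and lower, and grey points the 42 that did not pass. The values run from -4.04 for Gm48832 to 3.38 for Gm5627, and 38 of the 57 points lie below 0.

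Other classes of long noncoding RNA with at least 500 counts are given for comparison. Of 47 antisense genes tested, 34 had a negative log2 fold change, with 4 higher and 10 lower past the test. Of 14 genes that GENCODE M21 annotates as bidirectional promoter RNAs, 13 had a negative value, with none higher and 5 lower. Of 53 processed transcripts, 34 had a negative value, with 6 higher and 7 lower. Of 10 genes that await experimental evidence of a transcript (TEC), 2 had a negative value and 1 was higher. Of the 327 lincRNAs tested with fewer than 500 counts, 31 were higher and 21 lower (15.9%).

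Promoter letters are shown for lincRNAs that passed in each direction. Of the 57, 38 had a RefSeq promoter window (GRCm38.p6, 250 bases before to 50 after the RefSeq start), 27 of them with starts within 100 bases of the GENCODE start. The 6 windows below are from lincRNAs past the test, 2 higher and 4 lower on HFD, each with a RefSeq start no further than 175 bases from the GENCODE start. They are printed 5′ to 3′ on the strand of the lincRNA with every CpG in capitals, since CpG density is a usual way to describe a promoter. Gm5627 (chr9:102739398-102739697, plus strand) held 3 CpG, Dubr (chr16:50732724-50733023, minus strand) 19, Gm454 (chr5:138207295-138207594, minus strand) 0, 1700096K18Rik (chr5:25529768-25530067, plus strand) 33, Fam120aos (chr13:48967862-48968161, plus strand) 54 and 2010320M18Rik (chr8:70776612-70776911, plus strand) 43.
Gm5627: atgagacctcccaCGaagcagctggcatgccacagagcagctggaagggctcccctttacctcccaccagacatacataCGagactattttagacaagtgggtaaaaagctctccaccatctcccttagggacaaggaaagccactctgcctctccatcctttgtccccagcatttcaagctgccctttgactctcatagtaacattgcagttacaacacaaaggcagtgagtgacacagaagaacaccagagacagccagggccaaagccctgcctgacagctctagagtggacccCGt
Dubr: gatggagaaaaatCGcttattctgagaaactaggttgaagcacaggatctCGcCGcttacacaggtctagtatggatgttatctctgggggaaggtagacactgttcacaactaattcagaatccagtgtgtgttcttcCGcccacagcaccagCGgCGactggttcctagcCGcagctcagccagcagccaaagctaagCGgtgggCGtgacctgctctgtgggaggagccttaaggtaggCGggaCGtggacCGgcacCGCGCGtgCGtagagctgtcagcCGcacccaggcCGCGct
Gm454: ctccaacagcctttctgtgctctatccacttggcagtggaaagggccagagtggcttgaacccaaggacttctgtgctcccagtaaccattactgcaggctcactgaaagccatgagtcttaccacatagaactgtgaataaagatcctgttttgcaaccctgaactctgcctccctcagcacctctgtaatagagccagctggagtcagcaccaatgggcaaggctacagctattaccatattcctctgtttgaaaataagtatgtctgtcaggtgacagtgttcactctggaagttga
1700096K18Rik: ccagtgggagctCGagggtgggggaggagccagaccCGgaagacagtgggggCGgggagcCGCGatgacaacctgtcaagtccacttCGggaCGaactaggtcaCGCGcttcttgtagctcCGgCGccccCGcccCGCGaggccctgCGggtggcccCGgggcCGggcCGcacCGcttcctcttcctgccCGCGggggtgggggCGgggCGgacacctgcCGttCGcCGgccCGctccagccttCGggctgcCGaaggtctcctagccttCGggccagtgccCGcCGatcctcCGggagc
Fam120aos: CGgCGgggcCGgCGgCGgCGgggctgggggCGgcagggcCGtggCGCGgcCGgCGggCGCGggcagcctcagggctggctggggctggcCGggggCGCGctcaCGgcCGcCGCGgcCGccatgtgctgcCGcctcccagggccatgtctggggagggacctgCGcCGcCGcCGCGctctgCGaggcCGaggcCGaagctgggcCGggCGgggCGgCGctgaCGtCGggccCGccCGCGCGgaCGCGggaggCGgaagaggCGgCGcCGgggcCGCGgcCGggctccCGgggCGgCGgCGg
2010320M18Rik: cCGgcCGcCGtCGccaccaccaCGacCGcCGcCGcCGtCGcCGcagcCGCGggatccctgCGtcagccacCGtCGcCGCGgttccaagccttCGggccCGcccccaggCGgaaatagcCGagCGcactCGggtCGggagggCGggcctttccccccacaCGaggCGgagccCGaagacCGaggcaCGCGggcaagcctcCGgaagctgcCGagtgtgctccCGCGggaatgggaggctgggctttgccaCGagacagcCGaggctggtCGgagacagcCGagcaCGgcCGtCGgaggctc

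The windows of the 7 lincRNAs that were lower on HFD and had one held 48.0% to 86.7% G + C, with a median of 74%. Those of the 5 that were higher held 42.3% to 57.3%, with a median of 52.3%. The 26 that did not pass had a median of 53.5%, and all 32851 windows of the table had a median of 52.7%. CpG was at 0.85 of the number that base composition gives, by the median of the lower 7, at 0.38 in the higher 5 and at 0.67 in the 26 others, and all windows of the table had a median of 0.38. Of the 7 lower windows, 4 belong to lincRNAs that start head to head with a protein-coding gene, and of the 5 higher windows none does. The 10 head-to-head windows, whatever their call, had medians of 73.5% G + C and 0.85 for CpG. The ranges overlapped, since Gm454 (lower) and Gm36161 (higher) both held no CpG. The RefSeq starts of 1700047G03Rik (higher), Tmem250-ps (lower) and 5031425E22Rik (lower) lie 2786, 978 and 933 bases from their GENCODE starts. The CpG median of 0.38 in the higher 5 is the value of 1700047G03Rik.

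**Figure D2:**
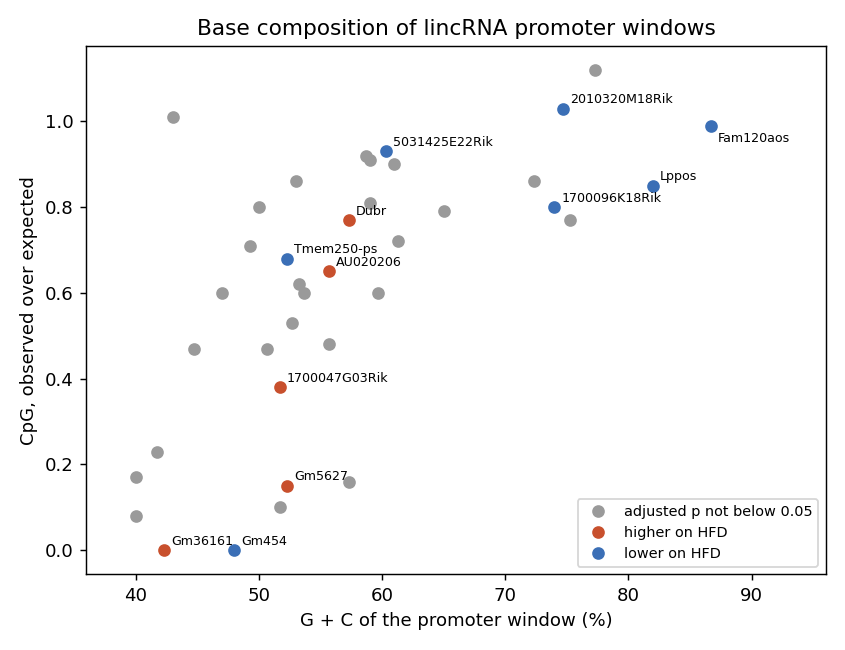
G + C content (%) against the ratio of observed to expected CpG in the 300-base promoter windows of 38 lincRNAs. Red points were higher on HFD, blue points lower and grey points did not pass the test. Some RefSeq starts lie far from the GENCODE start, as that of 1700047G03Rik does by 2786 bases. Fam120aos, Lppos, 2010320M18Rik and 1700096K18Rik lie at 74% to 86.7% G + C, beyond the 57.3% of Dubr, the most G + C rich window among those that were higher.

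Of 8 motifs searched on both strands, few matched the windows of the 12 lincRNAs past the test that had one. These include the windows named above whose RefSeq start is far from the GENCODE start. The C/EBP letters TTGCNNAA, bound by factors that drive adipocyte and macrophage genes, matched once in Gm454 and once in Gm36161, and 10.8% of all windows held them. The interferon response motif (ISRE) matched once in Gm36161, and 3.44% of all windows held it. The PU.1 letters GAGGAAGT (3.2% of all windows), the PPAR direct repeat (0.381%), AP-1 TGANTCA (7.81%), CRE TGACGTCA (1.79%), the E-box CACGTG (7.15%) and TATAAA (13.6%) matched in none of these 12 windows.

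Among the lincRNAs that were higher on HFD, Gm5627 and 1700047G03Rik stood furthest from ND. Gm5627 (ENSMUSG00000093812, chr9:102739648-102756685, plus strand, 4 exons) gave 2.64, 3.71 and 2.29 CPM in the ND libraries, against 27.4, 39.8 and 22.5 in the HFD libraries. Every HFD library was above every ND library. The ND libraries averaged 2.88 ± 0.739 CPM and the HFD libraries 29.9 ± 8.93 CPM (SD, n = 3 per diet), a fitted fold of 10.4 and a log2 fold change of 3.38 ± 0.29 (SE), with an edgeR adjusted p of 0.00338. Its nearest protein-coding neighbour Amotl2, which encodes an angiomotin-like junction protein and lies 6230 bases away, had a log2 fold change of -0.75 ± 0.32 and an edgeR adjusted p of 0.145.

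1700047G03Rik (ENSMUSG00000099349, chr15:11964276-11970086, plus strand) gave 6.09, 9.1 and 8.31 CPM in the ND libraries, against 48.1, 62.8 and 55.0 in the HFD libraries. Both sets of libraries were tight, and the gap between them was wider than either. The ND libraries averaged 7.83 ± 1.56 CPM and the HFD libraries 55.3 ± 7.34 CPM (SD, n = 3 per diet), a fitted fold of 7.05 and a log2 fold change of 2.82 ± 0.19, with the lowest edgeR adjusted p of the 57, 0.00142. Per length, it went from 5.33 ± 1.06 FPKM on ND to 37.3 ± 4.96 on HFD, which placed its overall mean 10th among the 57. Sub1, which encodes a transcription coactivator and lies 11253 bases away on the opposite strand, had a log2 fold change of 0.02 ± 0.13. The RefSeq start of 1700047G03Rik lies 2786 bases from the GENCODE start, so no promoter window is printed for it.

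Gm42047 and Gm36161 were higher on HFD, but much of their sequence is not theirs alone. Gm42047 gave 60, 86 and 214 counts in the ND libraries, against 508, 403 and 488 in HFD, a log2 fold change of 2.08 ± 0.40 (edgeR adjusted p = 0.0184), with replicate 3 of ND well above the other 2. Gm36161 gave 113, 121 and 173 counts in the ND libraries, against 326, 229 and 287 in HFD, a log2 fold change of 1.14 ± 0.19 (edgeR adjusted p = 0.0126). Of all 50-base stretches in their GENCODE transcripts, 64.8% for Gm42047 and 64.9% for Gm36161 also stood in transcripts of other genes, so how their reads were assigned among copies is uncertain. The exons of Gm36161 also overlap those of Gm21370 on the opposite strand, and the library kit does not mark strand. Without members that share over 50% of their stretches, 4 lincRNAs were higher.

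Dubr and AU020206 rose by less. Dubr, an RNA named for its place upstream of Dppa2 and studied in muscle differentiation, gave 250, 173 and 236 counts in the ND libraries, against 405, 301 and 491 in the HFD libraries. Its ND libraries averaged 11.7 ± 1.73 CPM and the HFD libraries 22.8 ± 5.11 CPM (SD, n = 3 per diet), a log2 fold change of 0.96 ± 0.20 and an edgeR adjusted p of 0.0235. Its exons hold Mir6363 on the opposite strand. AU020206 gave 331, 296 and 422 counts in the ND libraries, against 568, 431 and 636 in the HFD libraries, and its lowest HFD library was 25.9 CPM beside a highest ND library of 21 CPM. Its log2 fold change was 0.74 ± 0.16 (edgeR adjusted p = 0.0261). Akap13, the protein-coding gene 14429 bases away on the opposite strand, which encodes an anchor for protein kinase A, was higher as well, by 0.95 ± 0.15 (edgeR adjusted p = 0.0101).

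**Figure D3:**
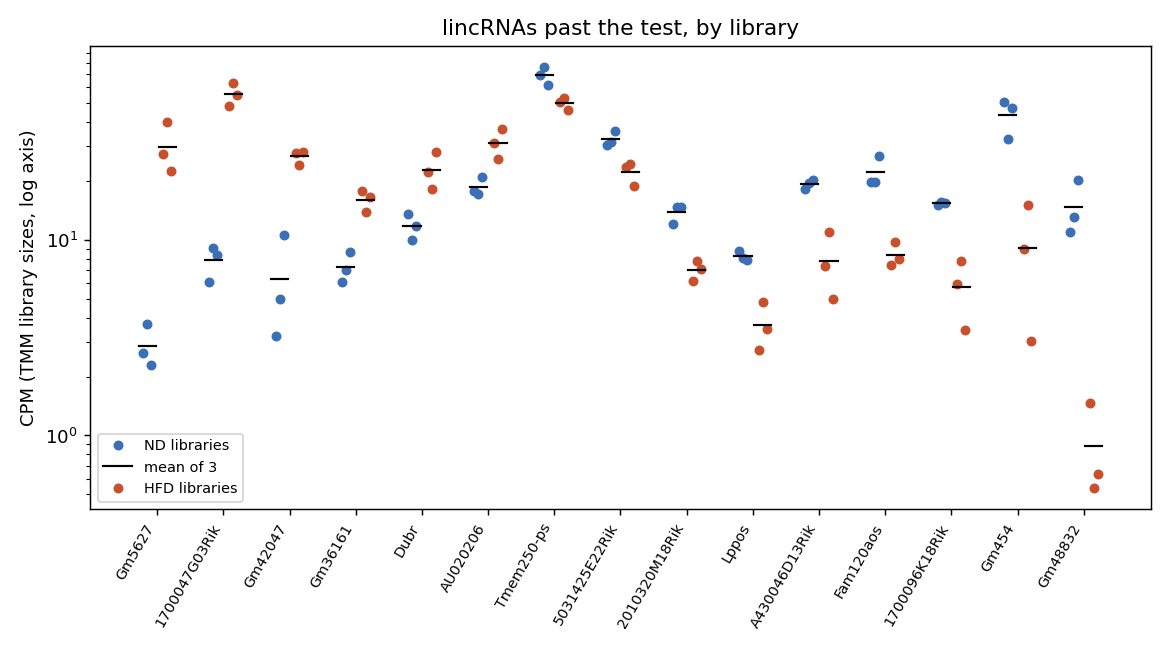
CPM of the 15 lincRNAs past the test in each of the 6 libraries, on a log axis, with ND in blue, HFD in red and the mean of each diet as a black line. The diets do not overlap in any of the 15, and the widest gaps are those of Gm5627, 1700047G03Rik and Gm48832.

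Gm48832 fell furthest on HFD. It is a 2-exon RNA (ENSMUSG00000111840, chr9:85332352-85348065, minus strand) with 204, 225 and 406 counts in the ND libraries, against 27, 9 and 11 in the HFD libraries. It averaged 14.7 ± 4.83 CPM over the ND libraries, against 0.882 ± 0.514 CPM over the HFD libraries (SD, n = 3 per diet), 16.5-fold lower by the fit, with a log2 fold change of -4.04 ± 0.44 (edgeR adjusted p = 0.00583). Tent5a, which encodes a poly(A) polymerase and lies 5004 bases away on the same strand, had a log2 fold change of -0.36 ± 0.23 (edgeR adjusted p = 0.303). The first exon of its longest transcript in GENCODE M21, 62 bases at chr9:85348003-85348064 (GRCm38, minus strand), is shown in place of a promoter window.
Gm48832 exon 1: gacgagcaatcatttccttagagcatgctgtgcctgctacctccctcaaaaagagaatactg

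Of the lincRNAs past the test, Gm454 and 1700096K18Rik were the next lowest. Gm454 gave 50.6, 32.5 and 47.0 CPM in the ND libraries, against 8.95, 15.1 and 3.05 in the HFD libraries, so the HFD libraries differed among themselves by a wide margin and still lay below ND. Its log2 fold change was -2.27 ± 0.50 (edgeR adjusted p = 0.0263). Mblac1, the nearest protein-coding gene at 7988 bases on the opposite strand, was lower as well, by -1.28 ± 0.30 (edgeR adjusted p = 0.029). 1700096K18Rik, of a single exon, gave 15, 15.6 and 15.4 CPM in the ND libraries, against 5.95, 7.76 and 3.45 in HFD, a log2 fold change of -1.43 ± 0.28 (edgeR adjusted p = 0.0197). Of the 50-base stretches of Gm454, 14.1% also stood in Nxpe5, and none of those of 1700096K18Rik stood in another gene. Between them in size was Smkr-ps, which gave 108, 132 and 182 counts in the ND libraries, against 46, 63 and 16 in HFD, a log2 fold change of -1.64 ± 0.48. It missed the threshold (edgeR adjusted p = 0.0576) and was past it in DESeq2 (adjusted p = 0.00612).

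Of the 9 lincRNAs that fell, 5 start head to head with a protein-coding gene, and 0 of those 5 partners passed the test. Of the 57 lincRNAs, 12 start within 1 kb of the start of a protein-coding gene on the opposite strand. All 12 had a negative log2 fold change, though Gm5113, at -0.08, turned to 0.02 without HFD replicate 1. Their median was -0.66, and 5 of them (41.7%) were lower past the test and none higher. Among the other 45 lincRNAs, 26 had a negative value, the median was -0.12, 4 (8.89%) were lower past the test and 6 were higher. The difference between these sets was not tested. The 12 protein-coding partners had a median of 0.12, and 5 of them had a negative value. Of the 12 partners 1 (8.33%) passed, beside 15.9% of all genes tested and 17.7% of those with at least 500 counts. It was Samd4, an RNA-binding repressor of translation, which was higher by 0.93 ± 0.20 (edgeR adjusted p = 0.0245), while Gm34934 beside it was at -0.77 ± 0.38 and did not pass (edgeR adjusted p = 0.195).

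Fam120aos starts 270 bases from Fam120a, the gene of an RNA-binding scaffold protein. It gave 368, 340 and 538 counts in the ND libraries, against 136, 162 and 139 in HFD, a log2 fold change of -1.40 ± 0.19 (edgeR adjusted p = 0.00789), while Fam120a gave 3556, 3723 and 3701 counts in the ND libraries, against 4053, 3380 and 4881 in HFD, a log2 fold change of 0.25 ± 0.16. As a percentage of the Fam120a count in the same library, Fam120aos was 10.3, 9.13 and 14.5 on ND and 3.36, 4.79 and 2.85 on HFD. No HFD library reached the lowest ND ratio. The lincRNA thus differed between diets by more than its partner did, by -1.64 on the log2 scale of the ratio.

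2010320M18Rik starts 102 bases from Pik3r2, which encodes a regulatory subunit of phosphoinositide 3-kinase. It gave 12, 14.7 and 14.6 CPM in the ND libraries, against 6.17, 7.82 and 7.07 in HFD, a log2 fold change of -0.97 ± 0.18 (edgeR adjusted p = 0.0152), beside -0.25 ± 0.10 for Pik3r2 (edgeR adjusted p = 0.12). Lppos starts 81 bases from Lpp, the gene of a focal adhesion protein, and overlaps its exons. It gave 162, 139 and 158 counts in the ND libraries, against 50, 80 and 61 in HFD, a log2 fold change of -1.16 ± 0.26 (edgeR adjusted p = 0.0263), beside -0.35 ± 0.10 for Lpp (edgeR adjusted p = 0.057).

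A430046D13Rik starts 679 bases from Myl6b, a myosin light chain gene. It gave 337, 336 and 406 counts in the ND libraries, against 135, 181 and 87 in HFD, a log2 fold change of -1.32 ± 0.27 (edgeR adjusted p = 0.0224). Myl6b was at -0.70 ± 0.23 (edgeR adjusted p = 0.0827), the lowest of the 5 partners. 5031425E22Rik starts 172 bases from Kmt2e, which encodes a chromatin regulator. It gave 565, 542 and 723 counts in the ND libraries, against 428, 405 and 325 in HFD, a log2 fold change of -0.56 ± 0.14 (edgeR adjusted p = 0.0401), beside 0.05 ± 0.12 for Kmt2e. In these 4 pairs too, the ratio of the lincRNA to its partner was lower in every HFD library than in every ND library, by -0.73 for 2010320M18Rik, -0.84 for Lppos, -0.66 for A430046D13Rik and -0.61 for 5031425E22Rik on the log2 scale. The 5 ratios are a description without a test, since the pairs were picked because the lincRNA had passed.

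**Figure D4:**
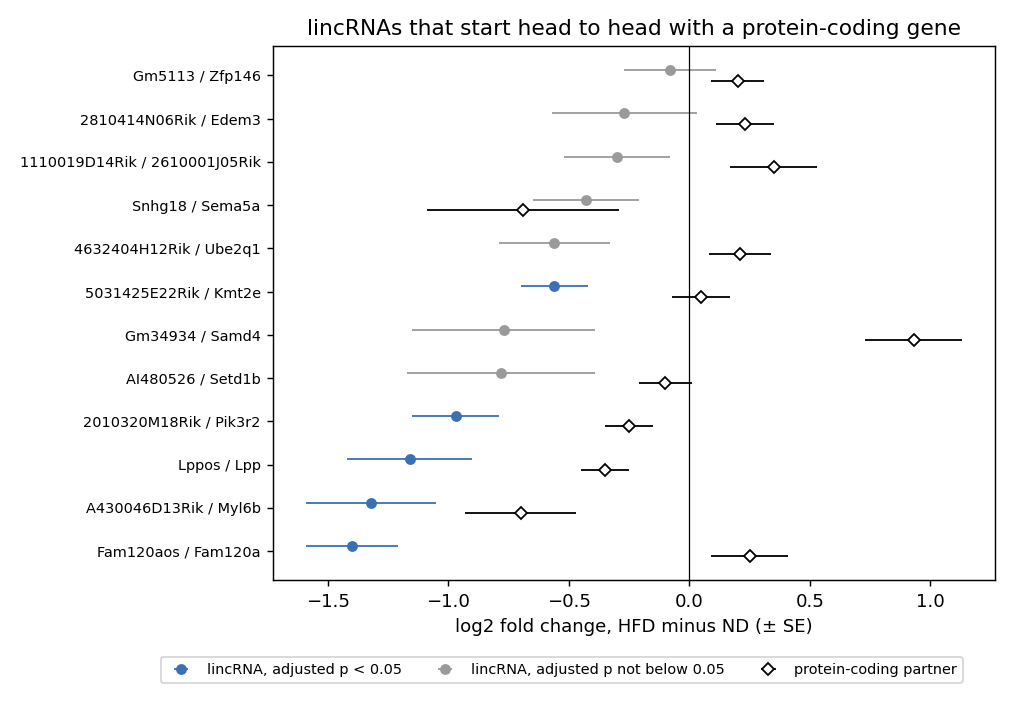
Log2 fold change (HFD minus ND, with standard error) of the 12 lincRNAs that start within 1 kb of a protein-coding gene on the opposite strand (circles, blue where past the test) and of that gene (open diamonds). All 12 circles lie below 0, and the diamonds of the 5 blue circles lie between -0.7 and 0.25.

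Tmem250-ps, the remaining lincRNA that fell, was abundant. It gave 69.5, 76.2 and 61.7 CPM in the ND libraries, against 50.6, 53.0 and 45.7 in HFD, a log2 fold change of -0.48 ± 0.12 (edgeR adjusted p = 0.0408). Its exons overlap those of 1810012K08Rik on the opposite strand, and RefSeq annotates it as protein coding. Nacc2, the nearest protein-coding gene at 13594 bases, had a log2 fold change of -0.17 ± 0.15.

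The 5 lincRNAs with the most counts were not among those past the test. Neat1 and Malat1, neighbours on chromosome 19, together held 49.8% of the 268457 counts of the 57. Neat1 (chr19:5824708-5845478, minus strand) gave 909, 928 and 1171 CPM in the ND libraries, against 773, 796 and 553 in the HFD libraries. Every HFD library was below every ND library, and its log2 fold change of -0.51 ± 0.21 had an edgeR adjusted p of 0.145. Frmd8, which encodes a regulator of membrane protein shedding and lies 4224 bases from Neat1, was higher on HFD by 0.77 ± 0.16 (edgeR adjusted p = 0.0235). Malat1, which collects in nuclear speckles, gave 276, 314 and 393 CPM in the ND libraries, against 413, 433 and 409 in HFD, a log2 fold change of 0.35 ± 0.17 (edgeR adjusted p = 0.198). Between these neighbours, the HFD libraries lay below ND for Neat1 and above it for Malat1.

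Per length, the deposited FPKM values averaged over the 6 libraries ran from 0.815 to 53.9 among the 57, with a median of 5.22. Malat1 led at 53.9 FPKM, ahead of AW112010 at 48.9, Gm10076 at 43.6, Neat1 at 41.6 and 2900097C17Rik at 40.7. RefSeq annotates Gm10076 as a pseudogene. Of the stretches in its GENCODE transcripts, 69.9% also stood in transcripts of other genes, so how its reads were assigned is uncertain. AW112010, an RNA induced by interferon in macrophages and translated into a small protein, gave 829, 745 and 708 counts in the ND libraries, against 693, 618 and 435 in the HFD libraries. Its libraries overlapped between diets once scaled, and its log2 fold change was -0.30 ± 0.19 (edgeR adjusted p = 0.298).

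2900097C17Rik (Norad in RefSeq), a cytoplasmic RNA that binds Pumilio proteins, gave 165, 185 and 188 CPM in the ND libraries, against 215, 194 and 242 in HFD, a log2 fold change of 0.28 ± 0.14 (edgeR adjusted p = 0.207). Of its 50-base stretches, 39.5% also stood in Gm7292. 1700020I14Rik (Oip5os1 in RefSeq, also Cyrano), known for the decay of the microRNA miR-7, gave 178, 195 and 191 CPM in the ND libraries, against 167, 169 and 154 in HFD, a log2 fold change of -0.21 ± 0.12 (edgeR adjusted p = 0.263). 1810058I24Rik, which RefSeq annotates as protein coding and which encodes a mitochondrial micropeptide, was at 0.26 ± 0.12 (edgeR adjusted p = 0.176). In each of these 3 the diets did not overlap, as in 44.1% of all tested genes with at least 500 counts, and the shift was within 1.21-fold.

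Gm26917, at a locus on chromosome 17 with ribosomal RNA sequence, gave 1703, 1219 and 632 counts in the ND libraries, against 596, 385 and 527 in the HFD libraries, so its ND libraries spread over a wide range and overlapped HFD. Its log2 fold change was -1.17 ± 0.36 (edgeR adjusted p = 0.0684). Gm37494 was at -0.25 ± 0.15 (edgeR adjusted p = 0.28). Meg3, the maternally expressed RNA of the imprinted Dlk1-Dio3 region, gave 375, 386 and 715 counts in the ND libraries, against 618, 568 and 900 in HFD, a log2 fold change of 0.61 ± 0.27 (edgeR adjusted p = 0.154). Replicate 3 was the highest library of Meg3 within each diet.

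**Figure D5:**
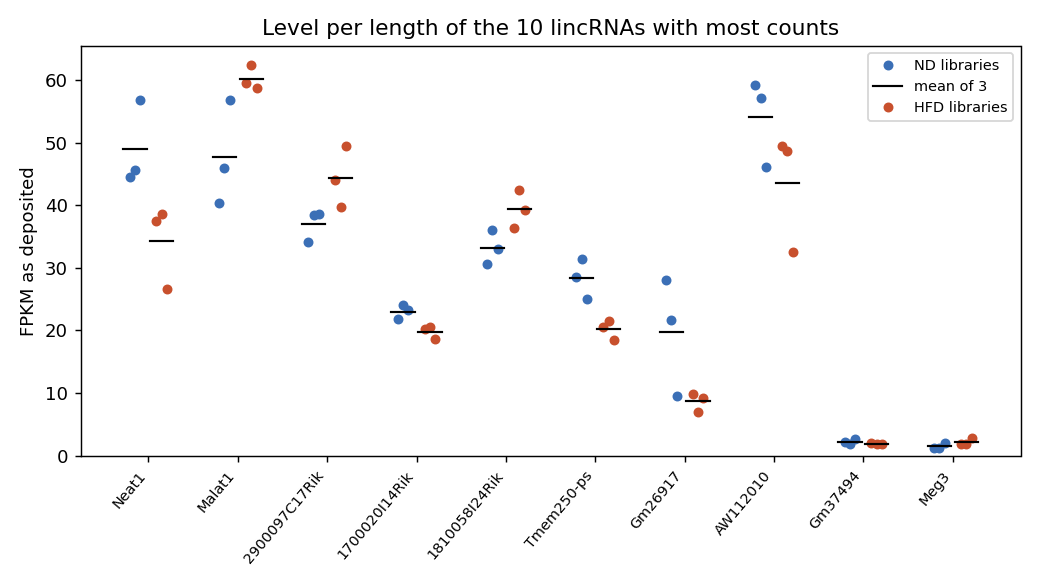
FPKM as deposited of the 10 lincRNAs with the most counts, in each ND (blue) and HFD (red) library, with the mean of each diet as a black line. Neat1 lies at 44.6 to 56.9 on ND and 26.7 to 38.6 on HFD, and of these 10 lincRNAs Tmem250-ps alone passed the test.

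Of 5 snoRNA host lincRNAs on the list of such genes, none passed the test, beside 15.9% of all genes tested. Of the 57 lincRNAs, 66.7% had a negative log2 fold change, and so did all 5 of these hosts. Their mature RNAs are spliced leftovers, while the snoRNAs from their introns guide the modification of ribosomal and other RNAs. Snhg12 was at -0.63 ± 0.19 (edgeR adjusted p = 0.0648), Snhg20 at -0.53 ± 0.19 (0.0967), Snhg18 at -0.43 ± 0.22 (0.214), Epb41l4aos at -0.39 ± 0.17 (0.161) and Snhg6 at -0.20 ± 0.16 (0.424). In Snhg12, Snhg20 and Epb41l4aos the diets did not overlap, as in 44.1% of all tested genes with at least 500 counts. Of the 11 other snoRNA hosts tested, which GENCODE M21 does not count as lincRNA or which held fewer counts, 2 were lower (18.2%, beside 15.9% of all genes tested in either direction and 6.04% lower) and none was higher. Of these 11, 9 had a negative value and the median was -0.44. Among genes with at least 500 counts, 64.2% of processed transcripts and 47.5% of protein-coding genes had a negative value. The 2 lower hosts were Snhg5 at -1.15 ± 0.20 (edgeR adjusted p = 0.0139) and Snhg8 at -0.66 ± 0.15 (edgeR adjusted p = 0.0281).

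Bvht, the Braveheart RNA of heart development, was detected in every library, with 238, 183 and 287 counts in the ND libraries, against 212, 214 and 121 in the HFD libraries, and its diets overlapped. It was at -0.27 ± 0.25 (edgeR adjusted p = 0.498).

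Lists of proteins that work with these RNAs held 46 genes, and 2 of them passed (4.35%, beside 15.9% of all genes tested), a count that ran from 0 to 5 over the other settings. Of 10 paraspeckle proteins, the partners of Neat1, 1 was lower and none higher. It was Hnrnph3, at -0.48 ± 0.11 (edgeR adjusted p = 0.0305), while Nono was at 0.05 and Sfpq at 0.03. Of 8 core proteins of the snoRNA particles, Dkc1, the pseudouridine synthase, was lower by -0.41 ± 0.11 (edgeR adjusted p = 0.0404) and none was higher. None of 15 nonsense-mediated decay factors, which degrade spliced snoRNA host RNAs, and none of 13 nuclear speckle proteins passed the test. Their medians were -0.02 and 0.08.

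Other lists of long noncoding RNAs of known role, which include some of the 57, held 1 higher and 1 lower beyond the snoRNA hosts. Of all genes tested, 9.85% were higher and 6.04% lower. Ctcflos, described in thermogenic fat and 1 of 8 tested RNAs described in adipose tissue, was higher by 1.08 ± 0.24 (edgeR adjusted p = 0.0261). Mir99ahg, 1 of 10 tested microRNA hosts, was lower by -1.34 ± 0.26 (edgeR adjusted p = 0.0175). None of the 11 tested structural and chromatin RNAs, 8 imprinted RNAs or 5 RNAs described in immune cells passed, beside 15.9% of all genes tested. By name, these short lists matched Neat1, Malat1 and Meg3 of the 57. The structural list also names Norad, Cyrano and Oip5os1, which are 2900097C17Rik and 1700020I14Rik here and are not among the 11. Neither of these lincRNAs passed.

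The nearest protein-coding gene was tested for 48 of the 57 lincRNAs and passed for 9 (18.8%, beside 15.9% of all genes tested). For 11 of the 15 lincRNAs past the test the neighbour was tested, and in 2 pairs (18.2%), Gm454 with Mblac1 and AU020206 with Akap13, both passed and moved the same way. Replicate 3 of ND was the highest ND library in 37 of the 57 (64.9%), beside 36.2% of all genes tested. Replicate 3 of HFD was the lowest HFD library in 31 (54.4%), beside 38.7%. The median coefficient of variation of the 57 was 17.4% on ND and 17.1% on HFD, beside 10.3% and 14.8% over tested genes with at least 500 counts. Exons of 18 of the 57 overlap those of another gene, and 4 of the 15 past the test are among these 18.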

How the data were processed

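Total RNA of epididymal fat was sequenced in 3 ND and 3 HFD libraries made with the NEBNext Ultra RNA kit, which does not mark strand. Whether polyadenylated RNA was selected or ribosomal RNA removed is not given in the sources used here. The authors deposited a table of raw counts of reads per gene and a separate table of FPKM values, counts divided by gene length and library size. The submitters' processing notes name fastp, HISAT2 2.0.5, featureCounts 1.5.0-p3 and DESeq2 1.20.0, and a human genome build, whereas the study's methods name TopHat, Cufflinks and GRCm38, so which made the tables is unclear. The annotation release is not given in the sources used here. Of 54532 gene identifiers, 54495 were in GENCODE M21, which gave names, biotypes and positions. Library totals were 16996896 to 18859320 counts. CPM used TMM library sizes, and 3 counts were 0.149 to 0.18 CPM.

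The diets were compared in edgeR 4.0.16 (filterByExpr, TMM, robust quasi-likelihood F test, R 4.3.3) with Benjamini-Hochberg adjustment over all 15751 genes tested. DESeq2 1.42.0 and limma 3.58.1 (voom, and log2(FPKM + 1) over genes of at least 0.5 FPKM in 3 libraries) were alternatives, as were other scalings, filters and minimums and leaving out each library. The fit was tested on simulated data. Same-numbered libraries came from different mice, and their deviations from the diet means did not correlate (-0.0858, -0.0556 and -0.00532). The minimum, gene lists and tests were chosen with earlier results of these data known. Genes named were those past the test whose diets did not overlap, the 10 with most counts, those on lists of known roles, the 3 on each side of the minimum, partner proteins past the test and nearest neighbours, others being named for a count of 5 or fewer after their values were seen. Promoter windows came from RefSeq (GRCm38.p6), matched by symbol for 36 of the 57 and by RefSeq synonym for 2.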

Additional observations from a re-analysis of the deposited data

How the results depend on the processing

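With 1 library left out, 2 to 6 of the lincRNAs were higher and 2 to 14 lower, and the partner protein lists held 0 to 4 genes past the test. Over all genes, 2.93% to 24.2% passed in those 6 fits, the lowest without HFD replicate 1 and the highest without HFD replicate 2. DESeq2 called 18 of the 57, the same 15 and also Gm26917, Snhg12 and Smkr-ps, where it called 19.1% of all genes. At a minimum of 200 summed counts, which admits more lincRNAs, 16 were higher and 17 lower. At a minimum of 1000, which 34 of the 57 reached, 6 were higher and 7 lower. In the main set of 57, 6 were higher and 9 lower. How many lincRNAs reached a minimum of 200 is not given, so its larger counts do not show a larger share. With limma on log2(FPKM + 1) and no filter, 3 were lower, and 2.03% of all genes passed. The 2 partner proteins past the test became 5 with DESeq2, 4 with its size factors in edgeR, 4 without robust estimation, 1 with library size alone, and 0 without the filter, with unfiltered FPKM or at an absolute log2 fold change of at least 1. With the replicate number as a block, 12 of the 15 lincRNAs passed, the 3 others being Gm454, Lppos and 5031425E22Rik, Meg3 also passed, and 0 partner proteins did. The numbers do not pair the libraries. None of the 15 changed sign in any of the 17 other fits. Among lincRNAs that had not passed, 7 changed sign with 1 library left out. They were Gm46430 (-0.39 to 0.05), Gm10076 (-0.17 to 0.61), Gm5113 (-0.17 to 0.02), D930016D06Rik (-0.27 to 0.29), Gm21781 (-0.42 to 0.16), 2310001H17Rik (-0.10 to 0.50) and BC002059 (-0.07 to 0.05). Their direction is not settled by these libraries. The cause of these shifts was not tested.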
